A study of Mus musculus with 4 samples.

Results

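XBP1s occupancy was examined at 10 genes that carry signals from growth factor and cytokine receptors to cell growth and survival: Pik3cd, Pik3r1, Pdk1, Akt1, Akt2, Mtor, Rptor, Foxo1, Foxo3 and Myc. The rule was that the deposited peak table names the gene as nearest to a peak, at whatever distance. Of the 10 genes 1 did, Akt2, with 2 of the 4890 peaks in the table. This is 10.0% of the 10 genes (exact Clopper-Pearson 95% interval 0.253 to 44.5, for counting error only), against 17.8% of 21896 protein-coding genes under the same rule. The other 9 genes had no row in the table analysed here.

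XBP1s is the spliced, active form of XBP1, a transcription factor of the unfolded protein response, the programme that matches the folding capacity of the endoplasmic reticulum (ER) to its load. Its sites were mapped with ChIP-seq, the sequencing of immunoprecipitated chromatin, in natural killer (NK) cells, cytotoxic lymphocytes of innate immunity. The series holds 2 XBP1s immunoprecipitation libraries and 2 input libraries, all from splenic NK cells of C57BL/6 background that had received IL-15 at 50 ng/ml for 1 h and were fixed in 1% formaldehyde for 10 min. The input was 2% of the chromatin. Per the series' design text the mice were Il15TgXbp1f/f, that is, they carried an IL-15 transgene and floxed Xbp1 alleles. No Cre, transgene promoter, age or pooling of animals is given in the sources used here, and no untreated cells were analysed here. The deposited table is 1 combined list with no value per library, so no peak has a replicate error or a depth, and no difference below was tested.

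In this pathway, class I phosphoinositide 3-kinases (PI3K) make a membrane lipid that recruits the kinase AKT. AKT restrains the FOXO transcription factors by keeping them out of the nucleus and relieves the brake on mTOR, the kinase that promotes protein synthesis. MYC is a transcription factor for genes of growth and metabolism. IL-15 engages this pathway in NK cells, where mTOR supports cytokine-driven growth and FOXO1 restrains maturation.

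The promoter sequences that the results turn on are given here, from RefSeq, 5′ to 3′ on the gene's strand and ending before the start site. The first 5 are the parts that lie under a peak, shown to set Akt2 beside other genes of the pathway that have a peak at their start. The last 2, of Mtor and Rptor, are the 250 bases before the start sites of the mTOR kinase and its partner, where no peak was listed. Capitals mark matches, on either strand, to ACGTG, a core shared by sites of XBP1 and of MYC-type factors, to CCACG, the XBP1-binding end of the ER stress element, or to CCGGAAG, a site of ETS factors.
Akt2 (GRCm38.p6, chr7:27591419-27591551, plus strand): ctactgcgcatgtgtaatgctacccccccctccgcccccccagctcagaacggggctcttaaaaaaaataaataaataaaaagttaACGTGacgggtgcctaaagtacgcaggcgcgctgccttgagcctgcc
Pik3ca (GRCm38.p6, chr3:32396815-32397064, plus strand): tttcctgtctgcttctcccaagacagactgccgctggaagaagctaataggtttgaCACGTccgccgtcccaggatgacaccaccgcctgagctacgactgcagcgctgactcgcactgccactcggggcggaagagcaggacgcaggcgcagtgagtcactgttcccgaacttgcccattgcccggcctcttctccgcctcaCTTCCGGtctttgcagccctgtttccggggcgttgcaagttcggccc
Pdpk1 (GRCm38.p6, chr17:24141674-24141844, minus strand): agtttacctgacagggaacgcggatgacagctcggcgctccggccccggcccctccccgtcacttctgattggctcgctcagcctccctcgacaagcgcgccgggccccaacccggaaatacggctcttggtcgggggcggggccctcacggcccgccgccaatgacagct
Rheb (GRCm38.p6, chr5:24842445-24842611, minus strand): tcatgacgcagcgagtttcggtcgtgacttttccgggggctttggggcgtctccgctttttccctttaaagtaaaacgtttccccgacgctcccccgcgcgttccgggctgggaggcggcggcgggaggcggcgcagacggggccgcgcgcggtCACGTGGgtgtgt
Mnt (GRCm38.p6, chr11:74830674-74830906, plus strand): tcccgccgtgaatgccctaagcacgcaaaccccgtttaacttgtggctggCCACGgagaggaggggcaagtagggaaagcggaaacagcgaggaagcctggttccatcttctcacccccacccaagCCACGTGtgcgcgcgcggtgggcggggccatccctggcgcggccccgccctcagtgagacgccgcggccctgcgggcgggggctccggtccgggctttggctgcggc
Mtor (GRCm38.p6, chr4:148448332-148448581, plus strand): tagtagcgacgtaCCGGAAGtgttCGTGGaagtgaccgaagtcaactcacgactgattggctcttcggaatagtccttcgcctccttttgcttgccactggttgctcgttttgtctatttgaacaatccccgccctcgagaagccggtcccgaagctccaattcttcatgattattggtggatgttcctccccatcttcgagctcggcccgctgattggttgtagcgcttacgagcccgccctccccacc
Rptor (GRCm38.p6, chr11:119602655-119602904, plus strand): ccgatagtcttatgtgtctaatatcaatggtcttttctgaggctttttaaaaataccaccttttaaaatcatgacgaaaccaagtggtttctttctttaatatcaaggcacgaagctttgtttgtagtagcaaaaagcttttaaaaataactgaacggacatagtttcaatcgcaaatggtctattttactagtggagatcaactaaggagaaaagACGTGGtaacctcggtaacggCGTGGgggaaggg

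Akt2 (chr7:27591552-27640826, plus strand) encodes an AKT isoform best known for its role in insulin-stimulated glucose uptake. Its first peak spanned 257 bp (chr7:27591419-27591675, mm10), was annotated by the authors as promoter and was centred 5 bp upstream of the transcription start site (TSS). It reached 133 bp before the start site and 123 bp after it. The second peak spanned 210 bp (chr7:27591886-27592095) and was centred 438 bp downstream of the TSS in intron 1 of 13, where the detailed annotation gives CpG. A gap of 210 bp separated the peaks. The start site implied by the authors' distances, 27591552, was the first of the 4 start sites that RefSeq gives for Akt2. The next start site lay 5.28 kb further into the gene and 4.74 kb from the nearest peak, so both peaks lay nearest to the first start site. Only the first peak covered it.

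Both Akt2 peaks were narrow. Over the whole table the median width was 373 bp, with quartiles of 258 and 578 bp, and 24.7% of peaks were narrower than the first Akt2 peak and 12.2% narrower than the second. Among the 3639 peaks centred within 1000 bp of a TSS, these shares were 21.3% and 10.2%. Width is the extent of the listed interval and not a measure of signal, since the table's score column is 0 throughout. Of 3313 protein-coding genes with a peak that close to the TSS, 159 had at least 2 such peaks (4.8%), and Akt2 was 1 of these. Among the 419 other genes with 2 rows, those closest to Akt2 in summed width (467 bp) were Ino80d (467 bp), Lmna (466 bp) and Moxd2 (464 bp). In Ino80d both peaks also lay near the TSS, centred 63 bp upstream and 609 bp downstream. Around Akt2 within 50 kb, a 178 bp peak at Pld3 lay 38.2 kb before the gene, and peaks of 228 and 356 bp at Zfp607b lay 33.8 and 48.4 kb past its end.

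**Figure D1:**
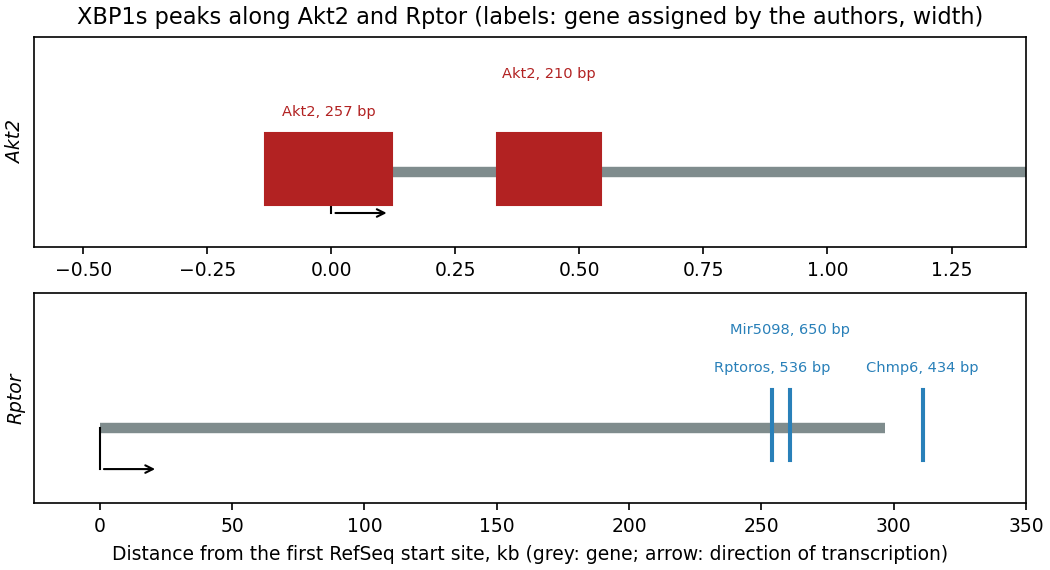
Peaks along Akt2 and Rptor, by distance in kb from the gene's first RefSeq start site; red peaks were assigned to the gene itself and blue ones to another gene, and the narrowest are drawn slightly wider than scale. The 2 Akt2 peaks lie at and just after the first start site, and Rptor has 2 inside it.

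The kinases that act with AKT differed among themselves. Akt1 (chr12:112653821-112674884), a widely expressed isoform, had no row, and the nearest peak to a start site of it was one of 236 bp, 18.6 kb upstream, in intergenic DNA assigned to Zbtb42. Pdpk1, which encodes the kinase that phosphorylates and activates AKT, had a 345 bp promoter peak centred 252 bp upstream of the TSS. Akt1s1, which encodes PRAS40, an AKT substrate that inhibits mTORC1, had one of 1141 bp centred 11 bp downstream of the TSS, wider than both Akt2 peaks together. In all, 3 of 7 genes of PDPK1 and the AKT kinases had a peak centred no more than 5000 bp from the TSS, against 15.9% of all protein-coding genes.

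The gene symbol Pdk1 needs care. In mouse nomenclature it denotes pyruvate dehydrogenase kinase 1, which limits the entry of pyruvate into the mitochondrial citric acid cycle, whereas the AKT-activating kinase often called PDK1 is encoded by Pdpk1. The table's alias column lists Pdk1 as an alias of Pdpk1. Under the symbol rule Pdk1 (chr2:71873215-71903858) had no row, nor had the other 3 pyruvate dehydrogenase kinase genes. The nearest peak to a Pdk1 start site lay 296 kb away, assigned to Map3k20.

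Neither Pik3cd (chr4:149649168-149702566), which encodes the p110delta catalytic subunit of leukocytes, nor Pik3r1 (chr13:101680761-101768217), which encodes the p85alpha regulatory subunit, had a row. Their start sites lay 182 kb and 152 kb from the nearest peak, assigned to Spsb1 and 4922502H24Rik. The class I list held 9 subunits and Pik3ap1, an adaptor that links receptors to PI3K. Of these 10 genes, 1 (10.0%) had a peak centred no more than 5000 bp from the TSS, against 15.9% of protein-coding genes. It was Pik3r5, a regulatory subunit of the gamma isoform, with 448 bp centred 4320 bp downstream in intron 1 of 18. At any distance there were 2 of 10, against 17.8% of protein-coding genes, with Pik3ap1 added by a 208 bp peak 45627 bp from its TSS. Among the 9 subunits alone the count was 1 (11.1%) under both rules. Pik3cb and Pik3cg had no row, and none of 5 class II and III genes had one.

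Pik3ca, the gene of the p110alpha subunit, was reached by a peak that carries another gene's name. A peak of 950 bp (chr3:32396215-32397164) covered its RefSeq start site and the 250 bases printed above, but the table assigned it to Zmat3, centred 31024 bp upstream of that gene's TSS. The printed stretch has 1 ACGTG match, on the other strand and starting 194 bases before the start site, and 1 CCGGAAG match starting 47 bases before it. Of 4025 protein-coding genes overlapped by a peak, 616 had no row of their own (15.3%).

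Of 8 genes that oppose PI3K, most of them phosphatases, 1 had a peak within 5000 bp (12.5%), against 15.9% of protein-coding genes. It was Pik3ip1, a membrane protein that inhibits PI3K, with 303 bp in intron 3 of 5. The phosphatase gene Inpp5d had no row.

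Mtor (chr4:148448582-148557685, plus strand) encodes the catalytic kinase of both mTOR complexes. It had no row, and no peak overlapped the gene. The closest to an end of it, 452 bp wide, lay 784 bp past the 3′ end and was centred 19 bp upstream of the TSS of Exosc10, a subunit of the RNA exosome. Another, of 1471 bp, lay 33.3 kb downstream at Srm, the gene of spermidine synthase. Counting any gene with a peak within 1000 bp of either of its ends, Mtor joins Akt2, which makes 2 of 10 genes, against 17.5% of protein-coding genes.

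Rptor (chr11:119602905-119899591, plus strand) encodes raptor, the subunit that brings substrates to mTORC1. It had no row, yet 2 peaks lay inside it. One of 536 bp (chr11:119856574-119857109) fell in intron 17 of 32, 254 kb from the start site, and was assigned to the noncoding gene Rptoros. One of 650 bp (chr11:119863449-119864098) fell in intron 19 of 32, 261 kb from the start site, and was assigned to the microRNA gene Mir5098. Both were wider than either Akt2 peak. The peak nearest to the Rptor start site was assigned to Endov and lay 111 kb away. Beyond the 3′ end, a 434 bp peak at Chmp6 lay 14.0 kb away. By overlap with the gene from end to end, Akt2 and Rptor had peaks, 2 of 10 genes, against 18.4% of protein-coding genes. Rptor spans 297 kb, and of 568 protein-coding genes at least that long 63 were overlapped by a peak (11.1%).

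Of 10 genes of the mTOR complexes, 2 had an assigned peak within 5000 bp (20.0%), against 15.9% of protein-coding genes. Prr5, a subunit of mTORC2, had one of 690 bp centred 394 bp downstream of the TSS, and Telo2, a factor in the assembly of mTOR and related kinases, one of 337 bp centred 73 bp downstream. Rictor, the defining subunit of mTORC2, had no row.

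The TSC, RHEB and AMPK group, which sets the activity of mTORC1, had 2 of 16 genes with a peak within 5000 bp (12.5%). The share of all protein-coding genes was 15.9%. Rheb, the small GTPase that activates mTORC1, had one of 685 bp centred 426 bp upstream of the TSS, and Stk11, which encodes the AMPK-activating kinase LKB1, one of 525 bp centred 64 bp upstream. In the printed Rheb stretch the letters CACGTG, 96 bases before the start site, hold ACGTG on both strands. Neither Tsc1 nor Tsc2 had a row. Of 25 amino acid sensing genes 5 had a peak (20.0%, against the same 15.9%), the widest at Seh1l (588 bp), Rraga (506 bp) and Fnip1 (444 bp). Among 16 genes of mTORC1 and AKT substrates and of proteins further downstream, 7 had one (43.8%, against the same 15.9%). The widest were at the autophagy gene Atg13 (1111 bp) and at Gsk3a (766 bp) and Gsk3b (756 bp), kinases that AKT inhibits. Rps6kb1, the gene of the mTORC1 substrate S6K1, had no row, but a 350 bp peak assigned to Tubd1 covered its start site.

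The FOXO factors had no row. Foxo1 (chr3:52268337-52350109) and Foxo3 (chr10:42181845-42276695) lay 198 kb and 202 kb from the nearest peaks, assigned to Maml3 and Afg1l. Foxo4 and Foxo6 had no row either, which makes 0 of 4, against 17.8% of protein-coding genes. Of 15 genes known as FOXO targets 4 had a peak within 5000 bp (26.7%), against 15.9% of protein-coding genes. Cdkn1b, the cell cycle inhibitor p27, had one of 1030 bp centred 326 bp downstream of the TSS, Bcl6, a transcriptional repressor, one of 348 bp, and Irs2, an adaptor of insulin signalling, one of 243 bp. The fourth interval, at Bbc3, was 23 bp wide. Il7r and Klf2 had no row.

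Myc (chr15:61985341-61990361) had no row, and the nearest peak to either end of the gene lay 179 kb away, assigned to H2afy3. Mycn and Mycl had none either. Several partners and antagonists of MYC did have peaks: in the MYC network as a whole, 8 of 14 genes had one within 5000 bp (57.1%), against the 15.9% above. The other 6 genes of the network had no assigned peak that close. Max, the obligate partner of MYC, had one of 486 bp centred 180 bp upstream of the TSS. The MAX-binding repressors Mxd1 (212 bp), Mxd3 (641 bp), Mxd4 (677 bp), Mnt and Mga (708 bp) each had at least 1, as had Mlx (561 bp), a partner of the MXD proteins, and Fbxw7 (317 bp), part of a ubiquitin ligase that degrades MYC.

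Mnt had 4 peaks, the most of any gene in the MYC network. They spanned 1063 bp centred 549 bp upstream of the TSS, 378 and 176 bp in intron 1 of 5, and 1150 bp in intron 4 of 5, centred 7377 bp downstream. The stretch printed above has the letters CCACGTG, starting 124 bases before the start site, and a second CCACG starting 200 bases before it.

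Genes that MYC is known to activate nearly all had a peak within 5000 bp, 16 of 17 (94.1%), against 15.9% of protein-coding genes. The widest were at Srm (1471 bp), Nop56 (960 bp) and Rcc1 (819 bp), genes of polyamine synthesis, ribosome biogenesis and nuclear transport. The exception was Slc7a5, an amino acid transporter gene, where a 171 bp peak assigned to BC048644 lay 2 bp from a gene end. Counting peaks within 1000 bp of a RefSeq start site gave 12 of 17, against 15.0% of protein-coding genes. Some genes, Slc7a5 among them, have no start site in the promoter set used for that count. Over the 16 genes the widest peak had a median of 493.5 bp, against 410 bp over all 3486 protein-coding genes with a peak within 5000 bp. These genes are expressed in most growing cells, and whether their share differs from that of other such genes was not tested.

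**Figure D2:**
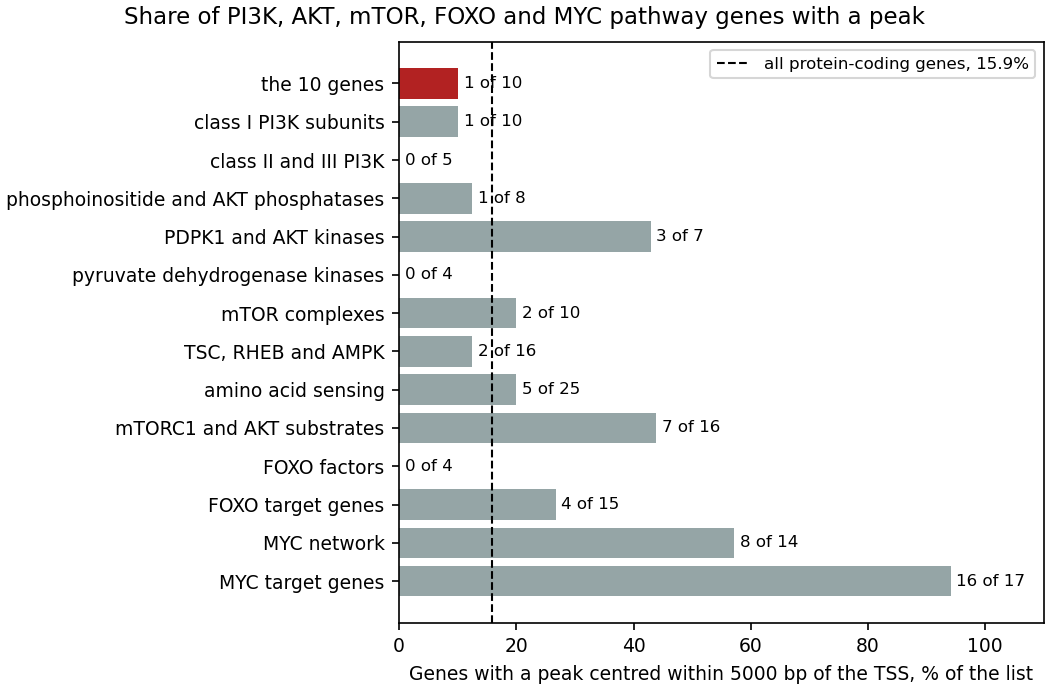
Share of each list, in %, with a peak centred within 5000 bp of the TSS; the bar of the 10 genes is red, and the dashed line is the share of all protein-coding genes (15.9%). The 10 genes (1 of 10) and the FOXO factors (0 of 4) stand below the line, and the MYC network (8 of 14) and MYC target genes (16 of 17) above it.

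Over the 13 role lists, 48 of the 141 genes outside the 10 had a peak within 5000 bp (34.0%), against 15.9% of protein-coding genes. The same count was 13 of 14 for ER chaperones and related genes of ER quality control, the best known XBP1s targets, 5 of 13 for the IL-15 receptor, JAK and STAT genes and 7 of 14 for the BCL2 family. The wider Akt2 peak spanned 257 bp, against a median for the widest peak of each gene of 1773 bp in the ER list, 392 bp in the IL-15 list and 313 bp in the BCL2 family. NK cell markers had one in 5 of 10 cases, T cell markers in 2 of 6, B cell markers in 0 of 6 and myeloid markers in 1 of 6, and a peak is no measure of a gene's RNA.

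**Figure D3:**
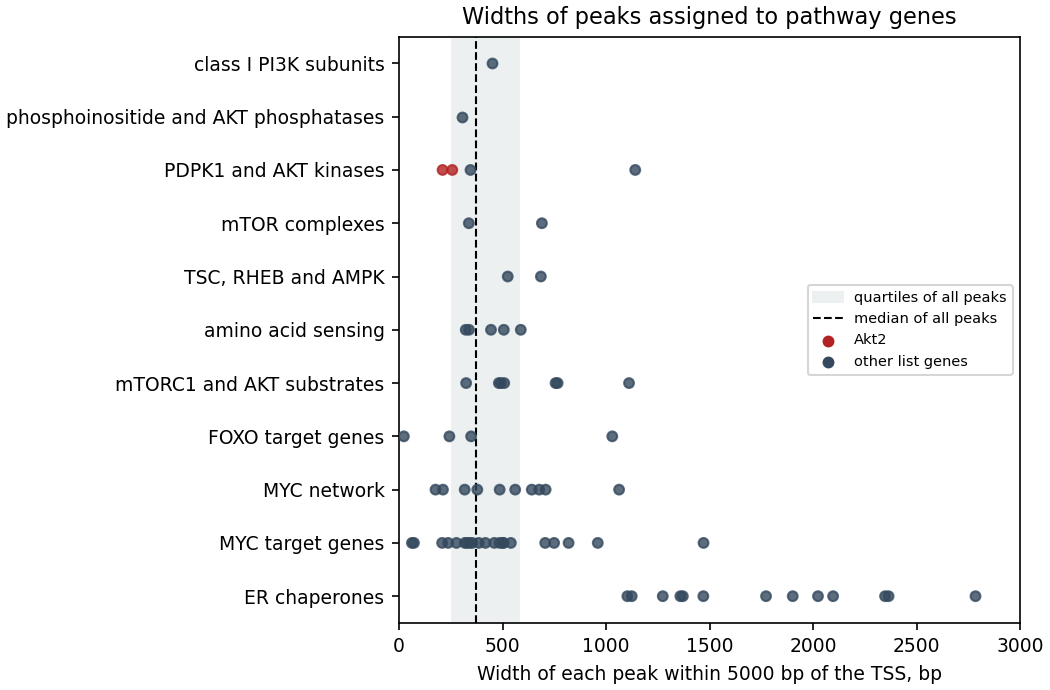
Width in bp of every peak within 5000 bp of the TSS, by role list; Akt2 peaks are red, the grey band spans the quartiles of all peaks (258 to 578 bp) and the dashed line is their median (373 bp). Both Akt2 peaks lie left of the band, while the ER chaperone peaks lie between 1103 and 2785 bp.

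For the 8 genes with no row and a RefSeq start site, the nearest peak lay at a median of 167 kb from a start site. Apart from Mtor, whose value is not given here, the distances ran between 18.6 kb (Akt1) and 296 kb (Pdk1). Over 17273 protein-coding genes with a start site in that table the median was 91.7 kb. That set includes genes with a peak at their start, whereas the 8 genes were taken because they had no row. The medians are therefore not of like sets, and no conclusion is drawn from their difference.

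**Figure D4:**
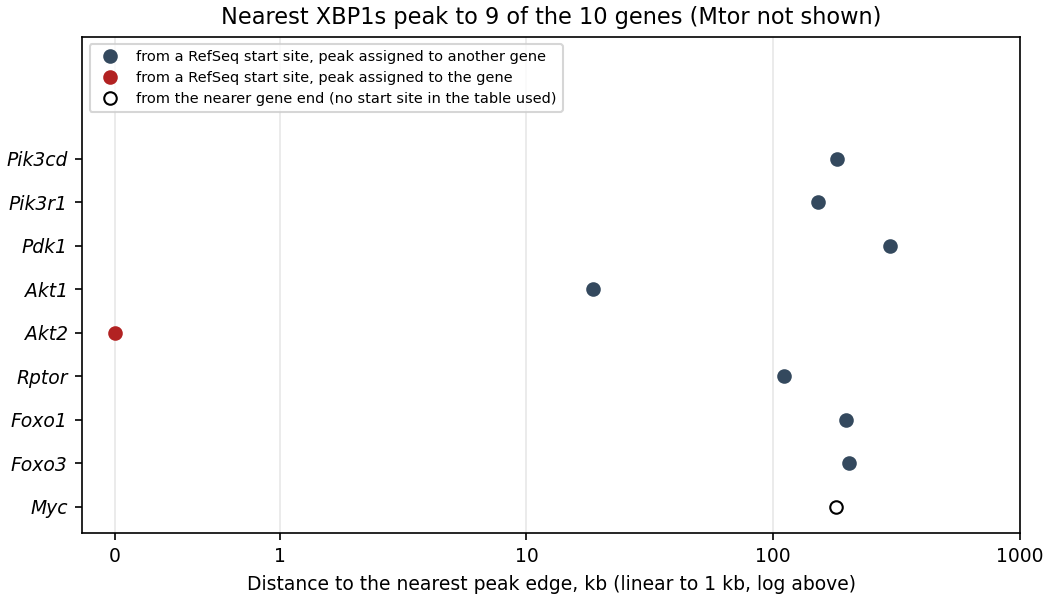
Distance in kb from a RefSeq start site to the nearest peak edge for 9 of the 10 genes (Mtor is not plotted), on an axis that is linear to 1 kb and logarithmic above; the open circle for Myc is measured from the nearer gene end. Akt2 lies at 0, Akt1 at 18.6 kb and the others beyond 100 kb.

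The letters of the promoters were compared over windows of 300 bases, 250 before and 50 after each RefSeq start site. In the Akt2 window at the first peak, ACGTG occurred once, on the gene's strand and starting 47 bases before the start site, inside the peak. Of 3569 windows that overlap a peak 1309 hold these letters (36.7%), against 5138 of 29282 windows that do not (17.5%), and 19.6% of all 32851 windows. Among the 9 of the 10 genes with windows in that table, ACGTG also occurred at Pik3cd and Rptor, neither of which had a peak there. At Rptor it started 34 bases before the start site. The printed Pdpk1 stretch, under a peak, has no capitals.

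CCACG was found in 9 of the 17 windows of these genes, against 32.8% of all windows, and in at least 1 window of each gene but Akt2. On the gene's strand alone it was in 4 of the 17, against 18.6% of all windows. It occurred in 57.7% of windows on a peak and 29.7% of the others. The Mtor stretch printed above holds it on the other strand, starting 226 bases before the start site, and a CCGGAAG match starting 237 bases before it. No window of the 9 genes held TGACGTG, the longer unfolded protein response element, the ER stress element (CCAAT and, 9 bases on, CCACG), the cyclic AMP response element TGACGTCA or the E-box CACGTG. All were searched on both strands, and ACGTG lies within the first of these and the E-box. Over all windows these were found in 2.01%, 0.119%, 1.79% and 7.15%, in that order. These are letters in a fixed window and not binding sites, and the base composition of windows on and off peaks was not compared.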

How the data were processed

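The data are 2 XBP1s immunoprecipitation and 2 input ChIP-seq libraries. The authors deposited 1 peak table, per the file headers the output of the HOMER annotator on 1 combined interval set with build mm10. Per the submitters' processing notes, the tools included the aligner Bowtie2 (2.4.5), the caller MACS2 (2.2.7.1), HOMER (4.11 and 4.11.1), the trimmer Trim Galore (0.6.7) and FastQC (0.11.9). The combining of intervals and its threshold are not given in the sources used here. A score column was deposited, with 0 in each of the 4890 peaks, so width (end minus start plus 1, from 1 to 3413 bp) was the only other quantity per peak. Positions, distances to the TSS and annotations are the authors'.

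Genes were matched by Entrez number to RefSeq GRCm38.p6 (4884 of 4890 peaks), and promoters were read from RefSeq windows of that build. With no value per library, no test was made. Counts are set beside all 21896 protein-coding genes. The 10 genes and the 13 role lists (151 genes, by textbook role) were chosen with earlier results of these data known. Named genes are the 10, every other gene with a peak within 5000 bp in the lists nearest to them, fixed paralogs, the 3 widest in each other list, neighbours within 50 kb, and genes like Akt2. Others were named after their values were seen: list genes without a row, and those reached by a peak of another name. The sequences printed were also chosen after their matches were seen. The search for 9 motifs and the overlaps were tested on simulated data. Some items that the rule names are not reported here. Alternatives varied distance, width and assignment. Tables were handled with pandas 2.3.3 and NumPy 2.4.6 under Python 3.11.15, intervals came from SciPy 1.17.1, and plots from matplotlib 3.10.9.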

Additional observations from a re-analysis of the deposited data

How the results depend on the processing

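The count of 1 of the 10 genes with a peak held within 5000 bp and 1000 bp of the TSS and for intervals of at least 200 bp, with Akt2 the gene each time. It was 0 for intervals of at least the median width, 2 by overlap with the gene (Akt2 and Rptor) and 2 with a peak within 1000 bp of either gene end (Akt2 and Mtor). Over all protein-coding genes the shares were 15.9% within 5000 bp, 15.1% within 1000 bp and 16.5% for at least 200 bp. They were 9.84% for the median width, 18.4% by overlap and 17.5% by gene end. Within 1000 bp of a RefSeq start site the count of the 10 genes was 1, against 15.0% of protein-coding genes. This alternative was added after seeing the data, as were the overlap and gene-end counts of the lists. Of 66 counts recomputed for single role lists and promoter letters, 57 stayed within 1.5 times the first count. The other genes of the role lists with a peak numbered 48 within 5000 bp. Under the alternatives of distance, assignment and a width of at least 200 bp they numbered 45 to 51. For intervals of at least the median width they numbered 32 of 141, against 9.84% of protein-coding genes. No paired analysis was possible because the table holds no value per library. For the same reason leaving out a replicate was not run, and a stricter peak score was not run because every score is 0. The depth of the libraries is unknown, so a gene without a row may have had a signal too weak to be listed.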

Other observations

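Other letters also differed in frequency between promoter windows on a peak and windows off one, as a description over 3569 and 29282 windows. The ETS letters CCGGAAG occurred in 29.9% on peaks and 6.29% off them, the GC box GGGCGG in 69.8% and 31.5%, the cyclic AMP response element in 5.94% and 1.28%, and the ER stress element in 0.42% and 0.082%. The FOXO letters GTAAACA occurred in 2.07% on peaks and 3.84% off them, and among the 9 genes at Akt1 only. Of the 13 windows of ER chaperone genes on a peak, 6 held the ER stress element.

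Several pathway genes without a row lay beside or under a peak of another gene. These were, besides Pik3ca and Rps6kb1, Pik3r2 (115 bp from a 280 bp peak assigned to 2010320M18Rik), Tti1 (7 bp from a 194 bp peak of Rprd1b), Lamtor2 (31 bp from a 736 bp peak of Ubqln4), Nprl2 (68 bp from a 393 bp peak of Cyb561d2) and Slc7a5, given above. Which of the neighbouring genes such a peak acts on was not tested.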
